A study of Mus musculus with 60 samples.

Results

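The alpha-defensin genes of the mouse were followed through 60 RNA-seq libraries of sorted intestinal epithelial cells. The family was taken as every gene of the deposited count table whose name starts with Defa, pseudogenes included, which gave 45 of the 55357 genes listed. Of these, 28 are annotated as protein coding and 17 as pseudogenes. All 28 coding genes and 11 pseudogenes had a count in at least 1 library, so 39 members were detected, and the other 6 pseudogenes had none. A filter on low counts left 37 members among 23360 tested genes. A member that passed the filter only through the groups where it is high had to differ, so counts over the 37 describe those members and not the whole family.

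The mice carried an Lgr5-2A-eGFP allele, which reports Lgr5, a receptor that marks the stem cells of the crypt base, and were 8 weeks old. Epithelial cells from the proximal, middle or distal part of the small intestine, or from the proximal or distal part of the colon, were sorted by GFP into high, intermediate and negative fractions. Polyadenylated RNA of each fraction was sequenced, and each of the 15 groups held 4 libraries. Every group, the GFP-negative ones included, came from reporter mice, and a GFP fraction is a gate on brightness rather than a cell type. The labels do not tie library numbers to animals, so p-values measure the spread between these libraries, which may be technical.

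Alpha-defensins, called cryptdins in the mouse intestine, are small cationic peptides with disulfide bridges that kill bacteria by disrupting their membranes. In the small intestine they are made by Paneth cells, which sit between the Lgr5-expressing stem cells at the crypt base and release them from granules into the crypt lumen. The mouse genes form a tandem array of near-identical copies, the metalloproteinase MMP7 cuts the precursors to active peptides, and the normal mouse colon lacks typical Paneth cells.

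All 45 members lie on chromosome 8 of GRCm38, and 41 of them form one cluster of 724.5 kb. The most abundant member, Defa24 (ENSMUSG00000064213.6, chr8:21734494-21735471, plus strand), lies near one end. At the other end is Defa21 (ENSMUSG00000074447.3, chr8:21025545-21026516, plus strand), and its close copy Defa22 (ENSMUSG00000074443.2, chr8:21162277-21163249, plus strand) starts 136.7 kb further on. Defa20 (ENSMUSG00000095066.2, chr8:21509258-21510237, plus strand) and Defa32 (ENSMUSG00000094818.2, chr8:21529032-21530012, plus strand) are neighbours among the members.

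Start regions were available for 16 of the 45 members in the RefSeq table of GRCm38.p6, each running from 250 bases before to 50 bases after the annotated start. The 7 printed here stand for the kinds of start region found in members that differed along the small intestine and in members that were not called. Capitals mark TCAAAG, which is CTTTGA read on the other strand, or CTTTGA itself, the core of the site bound by TCF/LEF factors of the Wnt pathway. Sequences run 5′ to 3′ along the gene.
Defa21 (chr8:21025295-21025594, plus strand): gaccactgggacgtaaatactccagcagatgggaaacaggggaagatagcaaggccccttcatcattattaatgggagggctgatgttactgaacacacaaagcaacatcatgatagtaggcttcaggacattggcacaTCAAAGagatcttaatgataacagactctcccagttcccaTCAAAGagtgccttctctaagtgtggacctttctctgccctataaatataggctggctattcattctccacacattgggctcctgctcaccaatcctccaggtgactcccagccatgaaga
Defa20 (chr8:21509008-21509307, plus strand): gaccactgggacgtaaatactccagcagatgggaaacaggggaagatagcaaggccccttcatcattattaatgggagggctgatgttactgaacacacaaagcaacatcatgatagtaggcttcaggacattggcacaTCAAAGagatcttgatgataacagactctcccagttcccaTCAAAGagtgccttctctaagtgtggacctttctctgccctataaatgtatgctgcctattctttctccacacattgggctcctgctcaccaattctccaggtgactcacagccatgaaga
Defa35 (chr8:21064788-21065087, plus strand): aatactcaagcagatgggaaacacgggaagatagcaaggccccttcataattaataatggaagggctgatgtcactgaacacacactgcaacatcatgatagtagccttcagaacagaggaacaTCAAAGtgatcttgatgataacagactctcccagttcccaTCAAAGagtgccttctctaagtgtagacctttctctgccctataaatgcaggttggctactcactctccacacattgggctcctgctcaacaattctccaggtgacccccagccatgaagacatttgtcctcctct
Defa36 (chr8:21427178-21427477, plus strand): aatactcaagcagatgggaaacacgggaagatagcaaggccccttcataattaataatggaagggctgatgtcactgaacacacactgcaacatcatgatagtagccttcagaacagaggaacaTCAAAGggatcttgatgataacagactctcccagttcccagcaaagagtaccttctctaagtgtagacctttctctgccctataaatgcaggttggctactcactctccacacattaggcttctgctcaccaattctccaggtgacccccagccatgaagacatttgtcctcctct
Defa23 (chr8:21054790-21055089, plus strand): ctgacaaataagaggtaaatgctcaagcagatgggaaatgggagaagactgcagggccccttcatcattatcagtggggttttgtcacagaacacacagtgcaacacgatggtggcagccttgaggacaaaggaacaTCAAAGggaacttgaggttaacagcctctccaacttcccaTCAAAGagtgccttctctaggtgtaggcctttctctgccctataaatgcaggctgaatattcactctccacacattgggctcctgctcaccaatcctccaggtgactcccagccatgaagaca
Defa30 (chr8:21134400-21134699, plus strand): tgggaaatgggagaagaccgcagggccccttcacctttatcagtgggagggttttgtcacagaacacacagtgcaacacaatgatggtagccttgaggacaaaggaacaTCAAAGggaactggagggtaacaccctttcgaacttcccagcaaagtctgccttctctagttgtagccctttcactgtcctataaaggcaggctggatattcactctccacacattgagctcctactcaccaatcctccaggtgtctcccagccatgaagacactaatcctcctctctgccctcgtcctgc
Defa38 (chr8:21096001-21096300, minus strand): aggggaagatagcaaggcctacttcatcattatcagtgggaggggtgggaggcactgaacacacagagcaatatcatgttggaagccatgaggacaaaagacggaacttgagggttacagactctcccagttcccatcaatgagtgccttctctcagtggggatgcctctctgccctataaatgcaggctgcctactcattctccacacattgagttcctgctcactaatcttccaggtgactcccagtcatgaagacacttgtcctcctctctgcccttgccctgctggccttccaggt

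The start regions of Defa21 and Defa22 were identical over all 300 bases, as were those of Defa2 and Defa20, of Defa23 and Defa31, of Defa36 and Defa37, and of Defa42 and Defa43. Those of Defa2 and Defa21 shared 97.7% of their bases, and those of Defa35 and Defa36 shared 98%. CTTTGA was searched on both strands, and it was present in 13 of the 16 members' regions and in 16.0% of the 32851 regions of this length in the table. TATAAA, the TATA box, also searched on both strands, was present in 15 of the 16 and in 13.6% of all. Defa21, Defa22, Defa2, Defa20, Defa32, Defa35, Defa41, Defa23 and Defa31 held 2 copies of CTTTGA, Defa28, Defa30, Defa36 and Defa37 held 1, and Defa38, Defa42 and Defa43 held none. A match is a description of the letters and not a bound site.

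Near-identical copies limit what a count for 1 member means. The share of 100-base windows of the annotated transcript found in no other gene was 100% for Defa24, 100% for Defa39, 99.7% for Defa30, 89% for Defa29 and 82.1% for Defa38. It was 59.6% for Defa21 and 59.7% for Defa22, whose transcripts are 99.5% identical. It was 11.9% for Defa5, 9.40% for Defa17, 0.307% for Defa20, 0.307% for Defa32 and 0% for Defa2. Reads of the last 5 could have been split among copies, so their single values are uncertain, and sums over copies that share at least 99% of their aligned transcript are given beside them.

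Libraries held between 55411864 and 113917959 counts in all (median 81230235). The deposited batch number equals the library number in 60 of 60 libraries, so each batch holds 1 library of every group, and the number of same-numbered pairs with a shared direction is the within-batch value. The 13 listed Paneth cell genes outside the family summed to 8057, 13640 and 13060 CPM (counts scaled to the library's total) in the GFP-high fraction of the proximal, middle and distal parts of the small intestine, against 716, 519 and 581 CPM in GFP-negative cells. The 8 neutrophil genes, listed because neutrophils of humans store alpha-defensins, summed to between 0.336 and 4.34 CPM in these GFP-high libraries, with Elane, Mpo and Ly6g at no count. The 6 leukocyte genes, all detected, summed to 11.3, 9.61 and 18.0 CPM in GFP-high cells (libraries 7.01 to 33.7), against 552, 299.6 and 585 CPM in GFP-negative cells (libraries 146 to 1148). Their part in the differences between fractions was not tested.

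The summed level of the family separated the small intestine from the colon and GFP-negative cells from the other fractions. In GFP-high cells the members summed to 9990 ± 3024 CPM proximally, 12660 ± 7891 CPM in the middle part and 14690 ± 4058 CPM distally (SD, n = 4 each). Without TMM scaling they made up 1.04%, 1.28% and 1.49% of all counts. GFP-intermediate cells were at 9148 ± 3147, 13900 ± 6194 and 13680 ± 5501 CPM in the same order of parts. GFP-negative cells were at 591 ± 347, 457 ± 268 and 397 ± 128 CPM. The GFP-high libraries of the middle part varied most, between 4292 CPM in number 4 and 23202 CPM in number 1. All small intestinal GFP-high libraries lay above the highest GFP-negative library, number 1 of the proximal part at 1081 CPM. In bulk samples, fewer Paneth cells in a fraction and less of this RNA per cell cannot be told apart.

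**Figure D1:**
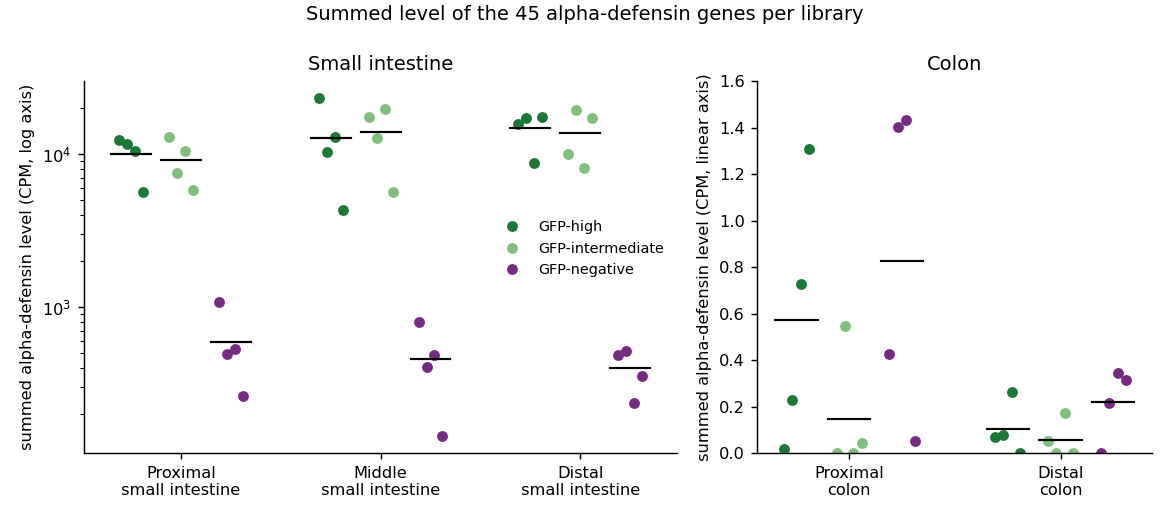
Summed level of the alpha-defensin genes in each of the 60 libraries, in CPM, with the small intestine on a log axis and the colon on a linear axis. Points are libraries and bars are means of 4; GFP-high libraries of the small intestine lie at 4292 CPM or above, GFP-negative ones at 1081 CPM or below, and no colon library passes 1.43 CPM.

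In the small intestine nearly every tested member had a higher level in the GFP-high fraction than in the GFP-negative one, coding genes and tested pseudogenes alike. In the proximal part 36 of 37 members were called higher, against 22.5% of all genes tested, and 0 lower, against 24.6% of all. In the middle part 37 of 37 members were called higher, against 22.7% of all genes tested, and 0 lower, against 25.6% of all. In the distal part 36 of 37 members were called higher, against 25.7% of all genes tested, and 0 lower, against 26.2% of all. DESeq2 gave 36, 37 and 36 higher and 0 lower in each, and at an unadjusted p below 0.05 edgeR gave 0 lower in each. The 4 libraries of the 2 fractions did not overlap for 34, 37 and 36 members from the proximal to the distal part, against 42.6%, 43.9% and 41.0% of all genes tested. The median log2 difference of the members was 4.37, 5.26 and 6.06 from the proximal to the distal part, or 4.30, 5.14 and 5.80 with members that had no GFP-negative count held at a floor of 3 counts per library. The median over all genes tested was 0, -0.044 and -0.005.

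Defa24 was the most abundant member. Its GFP-high libraries 1 to 4 held 4362, 4476, 3827 and 2025 CPM in the proximal part, against 478, 228, 284 and 103 CPM in GFP-negative libraries. In the distal part it held 1843, 2104, 1212 and 3063 CPM in GFP-high libraries, against 247, 298, 139.6 and 154 CPM in GFP-negative libraries. The fractions did not overlap in either part. Its log2 difference, with its standard error and its adjusted p from edgeR's quasi-likelihood test with Benjamini-Hochberg adjustment over all genes, the test used throughout, was 3.75 ± 0.54 (adjusted p = 9.75e-08) in the proximal, 3.49 ± 0.54 (adjusted p = 3.23e-07) in the middle and 3.29 ± 0.53 (adjusted p = 7.73e-07) in the distal part.

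Defa29 and Defa38 were among the members higher in GFP-high cells at both ends. Defa29 held 705, 624, 299 and 564 CPM in distal GFP-high libraries, against 7.46, 5.01, 4.05 and 5.92 CPM in distal GFP-negative libraries. Its log2 difference was 4.30 ± 0.52 (adjusted p = 4.16e-09) in the proximal, 6.14 ± 0.57 (adjusted p = 4.73e-12) in the middle and 6.61 ± 0.58 (adjusted p = 9.83e-13) in the distal part. Neither Defa29 nor Defa38 overlapped between the fractions at either end. Defa38 held 1639, 1319, 706 and 1157 CPM in distal GFP-high libraries, against 19.6, 18.2, 7.21 and 14.1 CPM in distal GFP-negative libraries. Its log2 difference was 4.39 ± 0.63 (adjusted p = 9.94e-08), 5.71 ± 0.67 (adjusted p = 9.32e-10) and 6.35 ± 0.69 (adjusted p = 1.21e-10) in the same order of parts. The tests of whether these differences changed between the ends are given with the interaction.

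**Figure D2:**
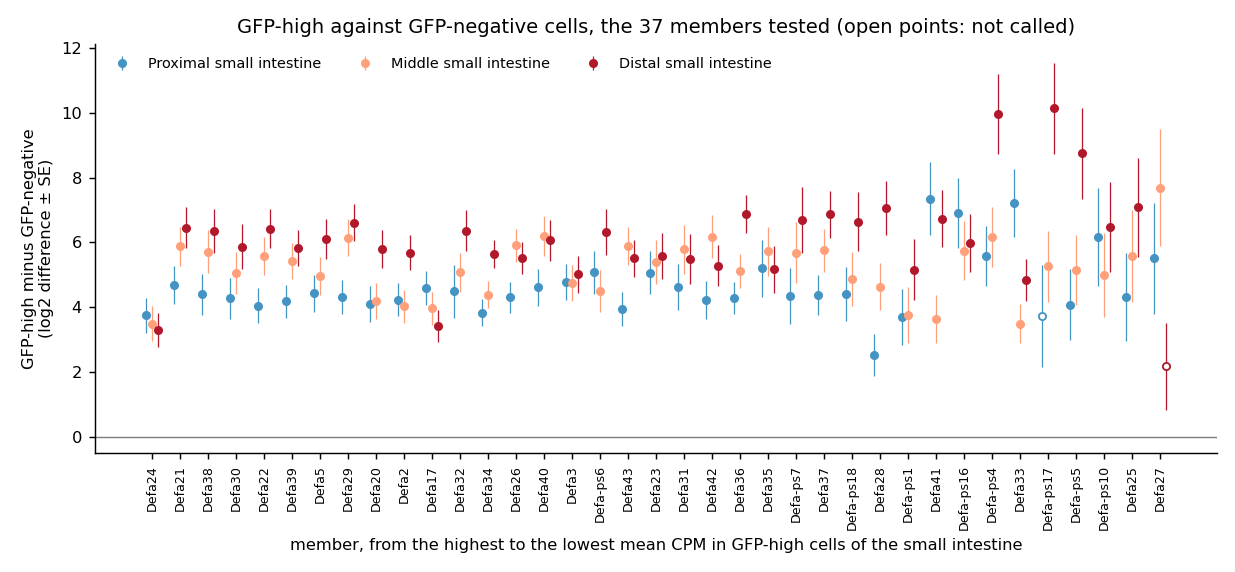
Log2 difference of GFP-high minus GFP-negative cells for the 37 members tested, with standard errors from edgeR, in the proximal, middle and distal small intestine; open points were not called. All but 2 points were called, and values of members with no count on one side are fitted values and no bounds.

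The 2 exceptions rested on very few reads. Defa-ps17 held 0.0492, 0.0143, 0 and 0.0149 CPM in proximal GFP-high libraries and no count in proximal GFP-negative libraries, so both groups lay at or under the floor. Defa27 averaged 0.118 CPM in distal GFP-high and 0.0247 CPM in distal GFP-negative cells, with a log2 difference of 2.17 ± 1.33 (adjusted p = 0.182).

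GFP-intermediate cells also carried far more of these transcripts than GFP-negative cells. Over the 3 parts 37 of 37 members were called higher in GFP-intermediate than in GFP-negative cells, against 29.3% of all genes. Defa24 differed by 3.93 ± 0.32 and Defa21 by 5.33 ± 0.34 on the log2 scale, each higher in 12 of 12 pairs. Between GFP-high and GFP-intermediate cells 0 members were called higher and 1 lower, against 10.4% and 13.4% of all genes. At an unadjusted p below 0.05 edgeR gave 2 higher and 2 lower, and DESeq2 called 0 higher and 1 lower.

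The member called lower was Defa33, a minor copy whose transcript is 99.8% identical to that of Defa2. It held 1.27, 1.41, 1.18 and 2.06 CPM in distal GFP-high libraries, against 2.43, 5.61, 1.92 and 6.22 CPM in distal GFP-intermediate libraries. Its log2 difference over the 3 parts was -1.12 ± 0.31 (adjusted p = 0.00773), lower in 11 of 12 pairs. Without the libraries numbered 1 the adjusted p was 0.062. Of the 100-base windows of the Defa33 transcript 0% are found in no other gene, so its reads may have been split among copies. Summed over Defa2, Defa20, Defa32 and Defa33, GFP-high cells held 90.5 ± 27.1, 583 ± 408 and 1732 ± 569 CPM from the proximal to the distal part. GFP-intermediate cells held 91.4 ± 22.2, 1042 ± 353 and 2108 ± 1000 CPM, and these sums carry no test. Leaving out GFP-high library 1 of the middle part gave 2 members called lower, and leaving out number 4 gave 1 called higher. Defa24 was lower in GFP-high cells in 11 of 12 pairs but was not called, at -0.42 ± 0.28 (adjusted p = 0.315). The test did not pair same-numbered libraries of a part. Their deviations from the group means correlated on average by 0.627, 0.452 and 0.367 from the proximal to the distal part. Spread shared by such pairs stays in the error of the test.

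Within single parts, comparisons added after the data were seen gave 0 members called in either direction between GFP-high and GFP-intermediate cells of the proximal part, where 0.449% of all genes were called. The middle part gave 0, where 3.58% were, and the distal part 0, where 13.5% were. At an unadjusted p below 0.05 edgeR gave 1 higher and 0 lower in the proximal, 0 higher and 3 lower in the middle and 1 higher and 1 lower in the distal part. DESeq2 called 0 higher and 0 lower in the proximal part, 0 higher and 0 lower in the middle part and 0 higher and 1 lower in the distal part. With only the compared groups in the fit 2 members were called lower in the middle part, Defa33 (adjusted p = 0.00489) and Defa41 (0.0111). In the distal part that fit called Defa33 lower (0.0251) and the pseudogene Defa-ps5 higher (0.0219). These tests did not pair same-numbered libraries either. A missing call does not show equal levels, and Defa21 in the distal part was at 0.55 ± 0.49.

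Relative to Lyz1, which encodes the Paneth cell lysozyme, the family stood lower in GFP-high than in GFP-intermediate cells of the middle and distal part. The summed family level was 1.36 ± 0.243 and 1.65 ± 0.161 times the Lyz1 level in GFP-high cells of those parts, and 2.17 ± 0.214 and 2.50 ± 0.243 times in GFP-intermediate cells (SD, n = 4 each). GFP-high libraries ran from 1.13 to 1.68 and from 1.51 to 1.80, and GFP-intermediate libraries from 1.88 to 2.37 and from 2.26 to 2.74, with no overlap in either part. In the proximal part the ratios were 1.94 ± 0.439 in GFP-high and 1.88 ± 0.431 in GFP-intermediate cells. These ratios carry no test. Averaged over the 3 parts, Lyz1 itself differed by 0.44 ± 0.24 (adjusted p = 0.182) between GFP-high and GFP-intermediate cells. From the proximal to the distal part it held 5114 ± 1135, 9147 ± 4527 and 8870 ± 2340 CPM in GFP-high cells. GFP-intermediate cells held 4808 ± 893.5, 6224 ± 2361 and 5499 ± 2240 CPM of Lyz1 in that order. No test of Lyz1 within single parts is given, so the ratios may differ through Lyz1 as well as through the family.

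Per length, the order of the members differed between parts. In proximal GFP-high cells Defa24 led with 8765 ± 2708 RPKM (CPM per kilobase of gene length), followed by Defa38 at 4714 ± 1571, Defa30 at 4463 ± 1690 and Defa39 at 2782 ± 794 RPKM. Defa17 came next at 1040 ± 329 RPKM, and these values are means with the SD over 4 libraries. Within libraries Defa24 exceeded Defa38 in 4 of 4, by 0.91 ± 0.11 on the log2 scale (mean and SD over libraries). Defa30 exceeded Defa39 in 4 of 4, by 0.64 ± 0.19, and Defa39 exceeded Defa17 in 4 of 4, by 1.43 ± 0.12. Defa38 exceeded Defa30 in 3 of 4, by 0.10 ± 0.10. In the middle part Defa24 at 5303 ± 2974, Defa38 at 4872 ± 3194, Defa21 at 4390 ± 2954 and Defa22 at 3720 ± 2102 RPKM came first. Defa24 was above each of the other 3 in 4 of 4 libraries, by 0.25 ± 0.37 over Defa38, 0.37 ± 0.24 over Defa21 and 0.55 ± 0.18 over Defa22, and the difference from Defa38 was within its SD. In the distal part Defa21 led with 7037 ± 1854 RPKM, followed by Defa22 at 6320 ± 1573, Defa24 at 4905 ± 1836 and Defa38 at 3434 ± 1107 RPKM. Defa21 exceeded Defa22 in 4 of 4 libraries, by 0.15 ± 0.04. Defa22 exceeded Defa24 in 3 of 4, by 0.41 ± 0.38, and Defa24 exceeded Defa38 in 3 of 4, by 0.50 ± 0.51, so neither of these orders held in every library. These orders carry no test. The share of 100-base windows found in no other gene was 100% for Defa24, 82.1% for Defa38, 59.6% for Defa21 and 9.4% for Defa17. Reads shared between copies and lost or split could therefore shift these orders.

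Along the small intestine, a set of members was far higher in distal than in proximal GFP-high cells, while the members that led in the proximal part were not called. In this comparison 12 of 37 members were called higher, against 6.39% of all genes, and 0 lower, against 5.42%. At an unadjusted p below 0.05 edgeR gave 15 higher and 4 lower, and DESeq2 called 12 higher and 1 lower. For 20 members the distal and proximal libraries did not overlap, against 25.6% of all genes tested, and the median log2 difference over the 37 was 1.03. Among the 12, Defa2, Defa20, Defa32 and Defa33 share at least 99% of their aligned transcript, as do Defa21 and Defa22, and Defa5 and Defa41. Calls within each such set are not independent, here and in the other comparisons.

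Defa32 had the largest log2 difference of the members. In GFP-high libraries 1 to 4 it held 0.902, 2.33, 1.90 and 2.56 CPM proximally, 121, 30.8, 45.4 and 36.6 CPM in the middle part and 568, 606, 269 and 620.5 CPM distally. No library of one part overlapped those of another. The log2 difference of distal minus proximal was 8.06 ± 0.69 (adjusted p = 2.07e-11), higher in 4 of 4 pairs. Of the 100-base windows of Defa32 0.307% are found in no other gene, so its values may depend on how reads were assigned among copies.

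Its close copies Defa20 and Defa2 followed the same order from a higher proximal level. Defa20 held 26.6, 30.2, 31.1 and 58.0 CPM proximally, 565, 172, 246 and 122 CPM in the middle part and 778, 768, 337 and 789 CPM distally. Defa2 held 45.4, 44.2, 47.9 and 70.1 CPM, 489.7, 157, 223 and 118 CPM and 582, 632, 279 and 695 CPM in that order of parts. For both, proximal libraries were clear of the other parts while middle and distal libraries overlapped. The log2 difference of distal minus proximal was 4.19 ± 0.54 (adjusted p = 3.33e-07) for Defa20 and 3.40 ± 0.49 (adjusted p = 4.12e-06) for Defa2. Summed over the near-identical Defa2, Defa20, Defa32 and Defa33, GFP-high cells held 90.5 ± 27.1, 583 ± 408 and 1732 ± 569 CPM from the proximal to the distal part.

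Defa21 and Defa22 made the largest change in amount. Defa21 held 150.5, 171, 134 and 92.2 CPM proximally, 3515, 1482, 1782 and 561 CPM in the middle part and 3061, 3760, 1891 and 3054 CPM distally. Defa22 held 83.5, 129.8, 131 and 87.3 CPM, 2634, 1314, 1761 and 525 CPM and 2701, 3378, 1776 and 2736 CPM in that order. Proximal libraries were clear of all others for both genes. The log2 difference of distal minus proximal was 4.42 ± 0.57 (adjusted p = 7.6e-08) for Defa21 and 4.62 ± 0.56 (adjusted p = 2.74e-08) for Defa22. Together the pair held 245 ± 51.6, 3394 ± 2106 and 5589 ± 1434 CPM.

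Of the other members called higher, Defa34 averaged 249 CPM in distal and 35.2 CPM in proximal GFP-high cells, a log2 difference of 2.82 ± 0.38 (adjusted p = 2.06e-06). Defa35 was at 14.1 and 1.10 CPM in distal and proximal cells, at a log2 difference of 3.69 ± 0.67 (adjusted p = 0.0002). Defa41 was at 5.96 and 0.886 CPM in those parts, at a log2 difference of 2.74 ± 0.70 (adjusted p = 0.00759), with an adjusted p of 0.0598 without the libraries numbered 1. Defa33 was at 1.48 and 0.228 CPM in those parts, at a log2 difference of 2.68 ± 0.57 (adjusted p = 0.00137). The pseudogene Defa-ps17 held 1.83, 1.91, 1.42 and 1.87 CPM in distal libraries, against 0.0492, 0.0143, 0 and 0.0149 CPM in proximal ones.

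Defa29 and Defa5 passed the threshold narrowly. Defa29 held 705, 624, 299 and 564 CPM in distal and 216, 207, 142 and 125 CPM in proximal GFP-high libraries, without overlap, at 1.67 ± 0.47 (adjusted p = 0.0141). Defa5 held 660.3, 919, 496 and 1129 CPM in distal and 262, 292, 272 and 174 CPM in proximal libraries, also without overlap, at 1.68 ± 0.51 (adjusted p = 0.0232). Summed with its near copy Defa41, Defa5 held 807 CPM in distal and 251 CPM in proximal cells. DESeq2 called neither, with adjusted p-values of 0.0733 for Defa29 and 0.109 for Defa5. Without the libraries numbered 1 the edgeR values were 0.0551 and 0.0929. The call of Defa29 was lost without distal library 1 (adjusted p = 0.0515) or proximal library 4 (0.0531). That of Defa5 was lost without distal library 2 (0.0525) or 4 (0.0604), or proximal library 1 (0.0534), 3 (0.0501) or 4 (0.0758).

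The leading proximal members had negative differences that did not pass. Defa24 was at -0.84 ± 0.49 (adjusted p = 0.281), lower in distal cells in 3 of 4 pairs. Defa38 was at -0.46 ± 0.55 (adjusted p = 0.662), Defa30 at -0.52 ± 0.56 (adjusted p = 0.616) and Defa39 at -0.82 ± 0.46 (adjusted p = 0.257). Defa17 held 222, 153, 85.8 and 206 CPM in distal and 546, 430, 443 and 233 CPM in proximal libraries, which did not overlap, at -1.31 ± 0.46 (adjusted p = 0.0532). Without proximal GFP-high library 4 Defa17 was called lower, at -1.50 with an adjusted p of 0.0405. With only the compared groups in the fit 16 members were called higher and 5 lower. The 5 lower were Defa23 (adjusted p = 0.00212), Defa31 (0.00901), Defa17 (0.00928), Defa3 (0.0207) and Defa24 (0.0467). Summed with Defa3, which shares 99.7% of its transcript, Defa17 held 194 CPM in distal and 471 CPM in proximal cells. Defa23 was at -1.54 ± 0.56 (adjusted p = 0.0682) in edgeR, and DESeq2 called it lower with an adjusted p of 0.0379.

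**Figure D3:**
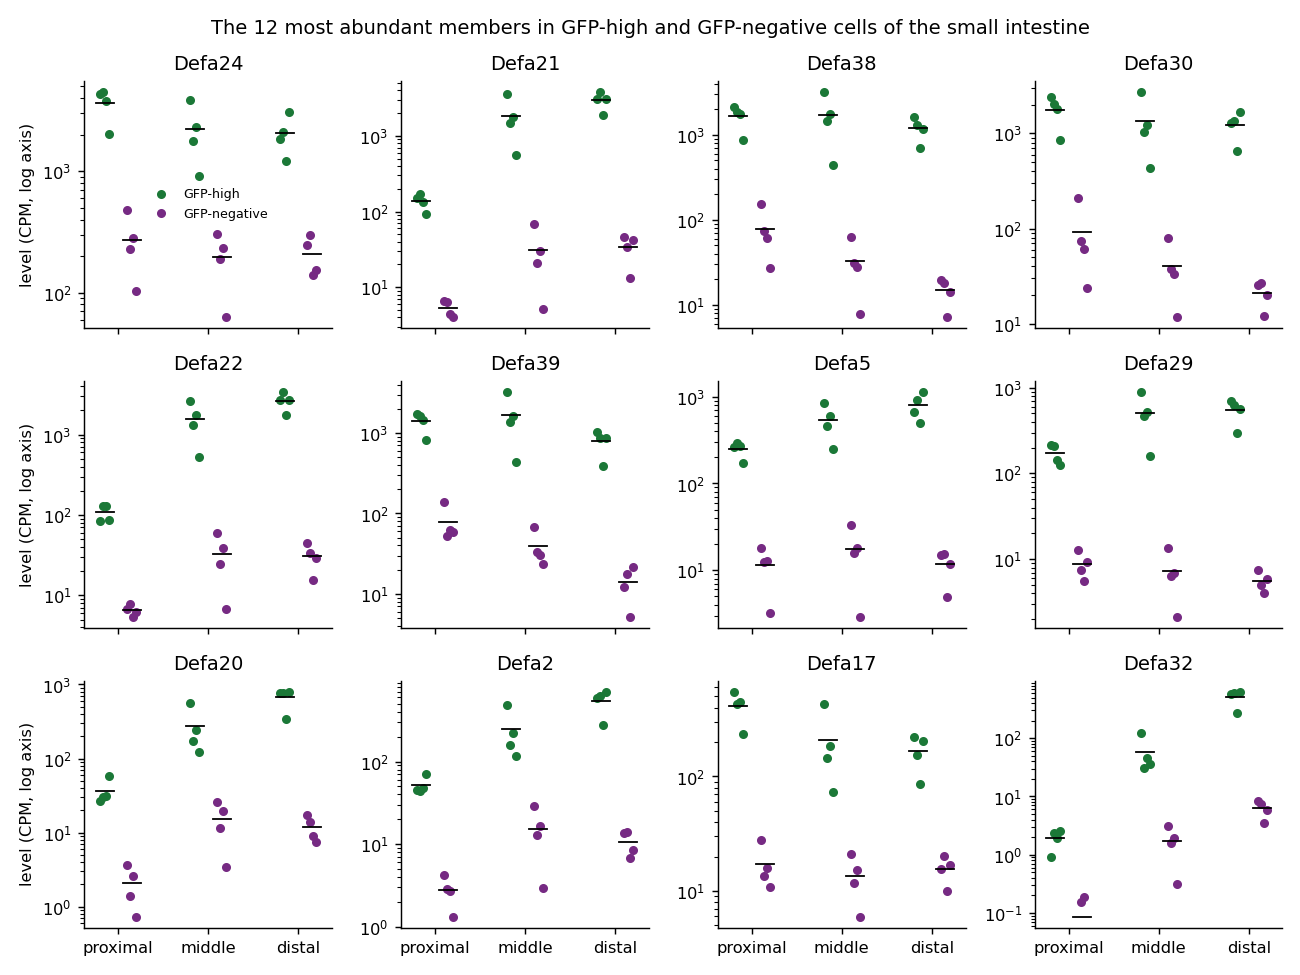
Levels of the 12 most abundant members in GFP-high and GFP-negative libraries by part of the small intestine, in CPM on log axes. Points are libraries and bars are means of 4, and the 2 proximal GFP-negative libraries without a Defa32 count are not drawn. In GFP-high cells the proximal libraries of Defa32, Defa21, Defa22, Defa20 and Defa2 lie below all middle and distal ones.

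Between neighbouring parts, 9 members were called higher in middle than in proximal GFP-high cells, against 1.24% of all genes, and 2 in distal than in middle cells, against 1.22%. In the middle against the proximal part Defa32 differed by 4.92 ± 0.60 (adjusted p = 8.82e-07), Defa22 by 3.85 ± 0.54 (adjusted p = 4.64e-06) and Defa21 by 3.74 ± 0.55 (adjusted p = 1.01e-05). The 2 called between distal and middle cells were Defa32 at 3.14 ± 0.54 (adjusted p = 0.000271) and Defa34 at 1.42 ± 0.36 (adjusted p = 0.029). The count between middle and proximal cells was 4 without the libraries numbered 1, and 5 without middle GFP-high library 1 or proximal GFP-high library 4. The count between distal and middle cells was 1 without distal GFP-high library 2 or 4, or middle GFP-high library 2, 3 or 4.

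The make-up of the family differed along the intestine. The 12 members called between distal and proximal GFP-high cells took 8.44%, 41.1% and 61.1% of the family's CPM in the GFP-high fraction from the proximal to the distal part, which is a description because that comparison chose them. They took 8.80%, 37.3% and 54.9% in GFP-intermediate cells, and 7.65%, 25.2% and 29.1% in GFP-negative cells. Defa24 took 36.7%, 18.3% and 13.9% in GFP-high cells and 36.8%, 28.1% and 22.5% in GFP-intermediate cells. In GFP-negative cells it took 45.8%, 44.4% and 52.9%. Shares of CPM also scale with gene length.

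**Figure D4:**
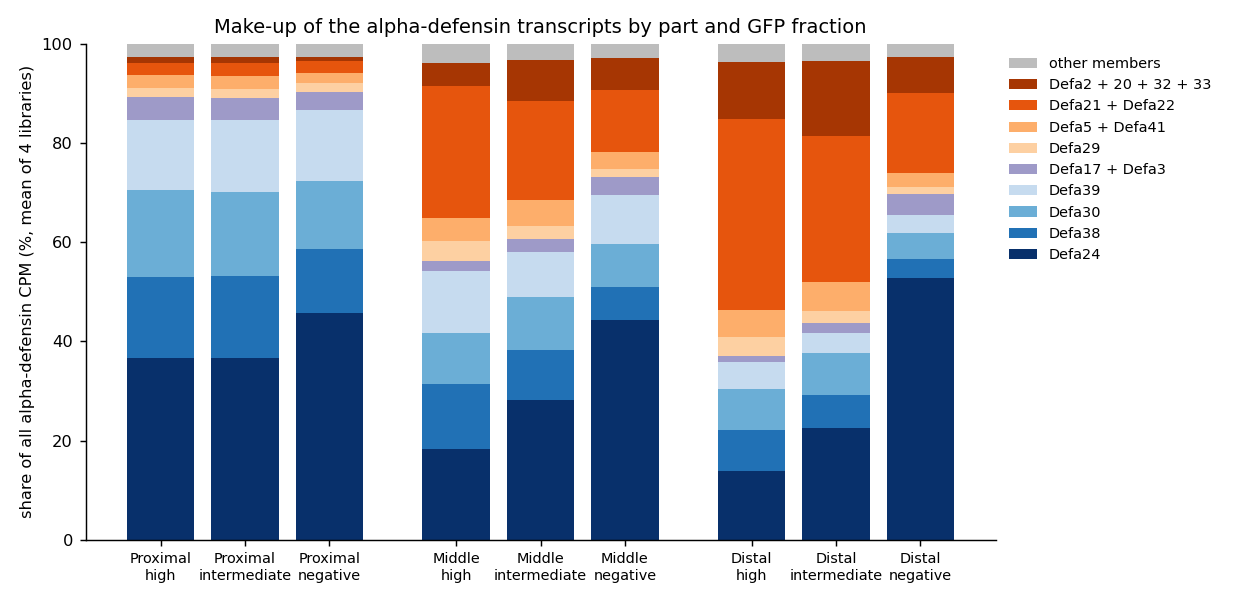
Share of the family's CPM taken by its members in each part and GFP fraction of the small intestine, stacked as means of 4 libraries, with near-identical members pooled. Defa24 takes 13.9% in distal GFP-high and 52.9% in distal GFP-negative cells.

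In GFP-negative cells 7 of 37 members were called higher in the distal than in the proximal part, against 6.67% of all genes, and 9 lower, against 8.90%. The 7 higher were Defa32, Defa33, Defa35, Defa21, Defa20, Defa22 and Defa2, all of them among the 12 called higher in GFP-high cells. Defa33 rested on 3, 7, 2 and 3 counts in distal GFP-negative libraries and none in proximal ones. With the proximal side held at the floor, the log2 difference of Defa33 was 0.33. Defa2, Defa20, Defa32 and Defa33 share at least 99% of their aligned transcript, as do Defa21 and Defa22. Calls within each of these sets are not independent. Defa21 held 45.6, 34.2, 13.1 and 41.5 CPM in distal and 6.56, 6.30, 4.43 and 4.06 CPM in proximal GFP-negative libraries, without overlap, at 2.66 ± 0.53 (adjusted p = 0.000204). Defa20 was at 2.50 ± 0.53 (adjusted p = 0.000549) and Defa22 at 2.24 ± 0.51 (adjusted p = 0.00112). Defa32 held 8.34, 7.29, 3.54 and 5.96 CPM in distal and 0, 0.157, 0.188 and 0 CPM in proximal libraries.

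The 9 lower were Defa28, Defa36, Defa39, Defa38, Defa37, Defa31, Defa30, Defa23 and Defa43. Several rested on few reads in distal GFP-negative libraries 1 to 4. Defa28 held 12, 0, 0 and 0 counts, Defa36 7, 5, 6 and 1 and Defa37 7, 4, 3 and 1. Defa31 held 9, 7, 0 and 19 counts and Defa23 9, 8, 0 and 19. The aligned transcripts of Defa36 and Defa37 are 100% identical, as are those of Defa23 and Defa31, so their calls are not independent. Defa39 held 12.3, 17.6, 5.19 and 21.3 CPM in distal and 137, 53.2, 61.9 and 58.2 CPM in proximal GFP-negative libraries, without overlap, at -2.46 ± 0.48 (adjusted p = 0.000228). Defa38 held 19.6, 18.2, 7.21 and 14.1 CPM in distal and 153, 74.1, 61.0 and 27.0 CPM in proximal libraries, at -2.41 ± 0.58 (adjusted p = 0.00205). Lyz1 averaged 179 CPM in distal and 387 CPM in proximal GFP-negative cells, at -1.11 ± 0.41 (adjusted p = 0.0593). The number of lower members was 5 without distal GFP-negative library 3, without proximal GFP-negative library 1 or without all libraries numbered 1, and 2 with only the compared groups in the fit.

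**Figure D5:**
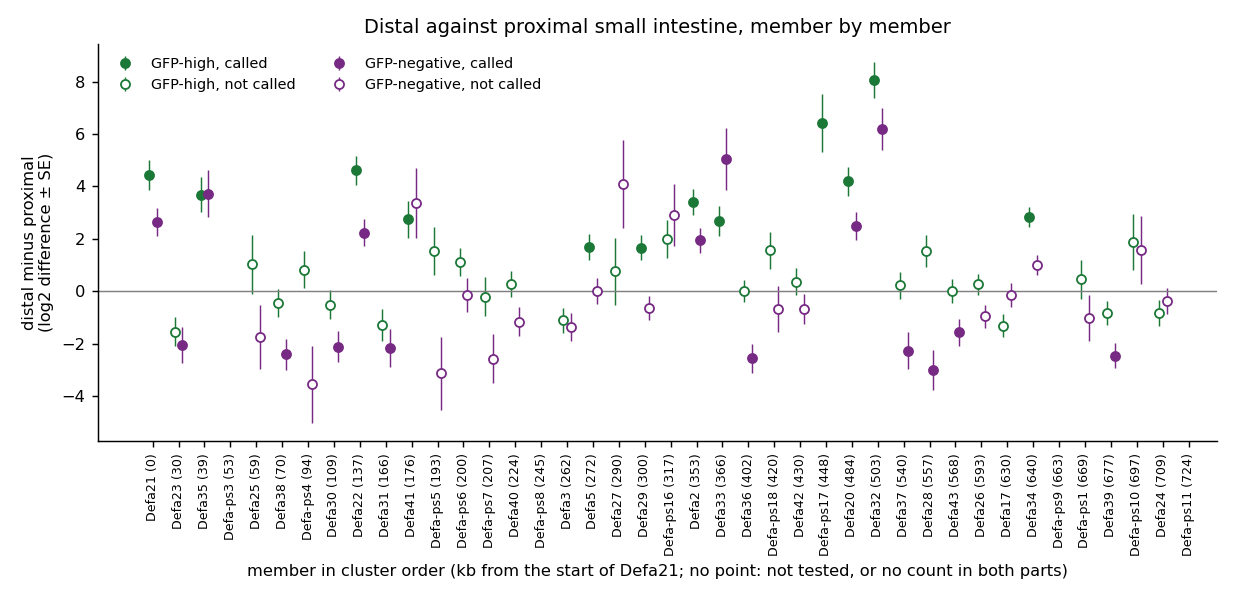
Log2 difference of distal minus proximal small intestine for the members in GFP-high and GFP-negative cells, with standard errors from edgeR, in the order of the genes along the cluster (kb from Defa21). Members higher in distal GFP-high cells, among them Defa21, Defa22, Defa2, Defa20 and Defa32, lie between members that were not called, and values of members with no count in one part are fitted values and no bounds.

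The members called higher in distal GFP-high cells did not form one block. Defa21 and Defa35 start 0 and 39.5 kb into the cluster, with Defa23, which was not called, between them. Defa22 and Defa41 start at 136.7 and 176.0 kb, Defa2 and Defa33 at 353.0 and 366.3 kb, and Defa20 and Defa32 at 483.7 and 503.5 kb. The 7 of these members with a start region in the table all held 2 copies of CTTTGA, as did 2 of the 9 members with a region that were not called, Defa23 and Defa31. Several regions are identical copies, so they are not independent. Defa35 and Defa36, with 2 copies and 1 copy in regions 98% identical, averaged 14.1 and 7.31 CPM in distal and 1.10 and 7.18 CPM in proximal GFP-high cells. Their regions also differ at bases outside the copies. Defa23 and Defa31, with 2 copies each, had log2 differences of distal minus proximal of -1.54 and -1.31 in GFP-high cells. Whether the copies bear on the level of any member was not tested.

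Whether the contrast of GFP-high with GFP-negative cells differed between the ends of the small intestine was tested as an interaction. It was larger in the distal part for 5 members, against 2.54% of all genes. Defa28 was at 4.55 ± 0.99 (adjusted p = 0.0054), with 6.04, 4.97, 2.87 and 7.41 CPM in distal GFP-high and 0.148, 0, 0 and 0 CPM in distal GFP-negative libraries. In the proximal part it held 2.26, 1.39, 2.32 and 1.34 CPM in GFP-high and 0.480, 0.275, 0.403 and 0.117 CPM in GFP-negative libraries. The other 4 were Defa36 at 2.58 ± 0.69 (adjusted p = 0.0302), Defa22 at 2.38 ± 0.69 (adjusted p = 0.0413), Defa29 at 2.31 ± 0.66 (adjusted p = 0.0378) and Defa34 at 1.81 ± 0.52 (adjusted p = 0.0461). Between distal and proximal GFP-high cells Defa36 differed by 0.02 on the log2 scale. In GFP-negative libraries it held 7, 5, 6 and 1 counts distally and 22, 20, 20 and 33 counts proximally. Of its 100-base windows 5.3% are found in no other gene, and its aligned transcript is 100% identical to that of Defa37. Defa24 was at -0.46 ± 0.69 (adjusted p = 0.8), Defa21 at 1.77 ± 0.71 (adjusted p = 0.155) and Defa38 at 1.96 ± 0.78 (adjusted p = 0.153). With the replicate block the adjusted p of Defa34 was 0.0513. The count was 2 without the libraries numbered 1, and 1 without proximal GFP-high library 4 or proximal GFP-negative library 4. It was 2 without distal GFP-high library 2, distal GFP-negative library 2 or 3, or proximal GFP-high library 1 or 3. It was 3 without distal GFP-high library 1 or 4, proximal GFP-high library 2 or proximal GFP-negative library 2.

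Pseudogenes of the array were counted at low levels. The 9 tested pseudogenes were called higher in the GFP-high than in the GFP-negative fraction of each part of the small intestine, except Defa-ps17 in the proximal part, and the other pseudogenes did not pass the filter or had no count. Defa-ps6 held 9.19, 16.2, 15.9 and 11.0 CPM in GFP-high and 0.749, 0.706, 0.0805 and 0.0587 CPM in GFP-negative libraries of the proximal part. In the distal part it held 24.2, 27.9, 13.3 and 48.1 CPM in GFP-high and 0.173, 0.484, 0 and 0.787 CPM in GFP-negative libraries. The log2 differences were 5.07 ± 0.67 (adjusted p = 1.2e-07) and 6.32 ± 0.71 (adjusted p = 3e-09). Defa-ps7 averaged 7.55, 6.02 and 6.51 CPM and Defa-ps18 2.61, 5.74 and 7.72 CPM in GFP-high cells from the proximal to the distal part. Defa-ps1 averaged 2.77, 2.38 and 3.79 CPM, Defa-ps16 1.13, 2.84 and 4.48 CPM, and Defa-ps4 0.868, 1.38 and 1.54 CPM. Defa-ps18 shares at least 99% of its aligned transcript with Defa28, Defa-ps1 with Defa-ps6, and Defa-ps16 with Defa-ps17, so their reads may have been shared.

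In the colon the family was close to the limit of detection. The 24 colon libraries together held 693 counts of the family, 6 libraries held none, and 15 members had any count. The mean sum was 0.337 CPM in GFP-high libraries of the colon, against 12450 CPM in GFP-high libraries of the small intestine. In GFP-high cells 37 of 37 members were called lower and 0 higher in the colon than in the small intestine, against 21.3% and 20.9% of all genes. At an unadjusted p below 0.05 edgeR gave 0 higher and 37 lower, and DESeq2 called 0 higher and 37 lower. For 27 of the 37 the colon side had no count, and with these held at the floor the median log2 difference was -8.46. Of the 11 tested Paneth genes outside the family, 8 were called lower and 3 higher in the colon. The 3 higher were Mptx1, which averaged 1559 CPM in the colon and 1.39 CPM in the small intestine, Nupr1 and Copz2. The list summed to 347 and 3377 CPM in GFP-high and to 662 and 9753 CPM in GFP-negative cells of the proximal and distal colon. Lyz1 averaged 0.963 CPM in the colon and 7710 CPM in the small intestine, at -13.09 ± 0.48 (adjusted p = 4.01e-29).

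Within the colon, 0 of 37 members were called higher and 1 lower in the GFP-high than in the GFP-negative fraction of the proximal part, against 11.3% and 14.0% of all genes. At an unadjusted p below 0.05 edgeR gave 0 higher and 2 lower, and DESeq2 called 0 higher and 3 lower. The member called lower was Defa21, with 0, 0, 0 and 0.0323 CPM in GFP-high and 0.0532, 0.139, 0.416 and 0 CPM in GFP-negative libraries, at -3.79 ± 1.40 (adjusted p = 0.0404). Leaving out GFP-high library 1, 2 or 3 or GFP-negative library 2 or 3 gave 0 members called lower, and leaving out GFP-negative library 1 or 4 gave 2. The libraries overlapped, and without GFP-negative library 3 the adjusted p was 0.361. In the distal colon 0 members were called in either direction, against 25.1% of all genes. Both fractions lay at or under the floor of 3 counts per library for 27 of the 37 members in the proximal and 32 in the distal colon. Such members could hardly be called, so these counts do not show that the fractions are alike. At an unadjusted p below 0.05 edgeR gave 0 higher and 1 lower there, and DESeq2 called 2 higher and 4 lower.

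Genes for processing of the peptides did not all move with the family. Mmp7 averaged 93.6 CPM in GFP-high and 11.1 CPM in GFP-negative cells of the proximal part, at 3.08 ± 0.40 (adjusted p = 5.1e-09). In the distal part it averaged 173 and 50.6 CPM in those fractions, at 1.78 ± 0.38 (adjusted p = 7.52e-05). Of the 8 listed genes for secretion and processing of Paneth granule peptides, 3 were called higher (Mmp7, the potassium channel gene Kcnn4 and the bacterial sensor gene Nod2) and 3 lower in the proximal part, and 3 higher and 4 lower in the distal part. Of all genes, 22.5% were higher and 24.6% lower in the proximal part, and 25.7% higher and 26.2% lower in the distal part. Xbp1, a regulator of the secretory pathway, was lower at -1.16 ± 0.12 and -1.05 ± 0.12. Of the 9 listed Paneth lineage regulators, 4 were higher (Sox9, Axin2, Ephb3 and Wnt3) and 5 lower (Atoh1, Gfi1, Spdef, Fzd5 and Tcf7l2) in each part, beside the same shares of all genes.

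Some other antimicrobial genes were also higher in distal GFP-high cells. Of the 5 tested genes of that list, 4 were called higher and 0 lower in distal than in proximal GFP-high cells, where 6.39% of all genes were higher and 5.42% lower. Reg3g, a lectin that acts on Gram-positive bacteria, averaged 1395 CPM in distal and 94.6 CPM in proximal cells, at 3.88 ± 0.69 (adjusted p = 4.57e-05). Unlike the alpha-defensins it was lower in the GFP-high than in the GFP-negative fraction, with 1395 and 5906 CPM in the distal part, at -2.08 ± 0.64 (adjusted p = 0.00514). Of the 11 tested Paneth genes outside the family, 2 were called higher and 0 lower in the same comparison, Nupr1 at 2.11 ± 0.33 and Copz2 at 1.26 ± 0.34, and Lyz1 was at 0.79 ± 0.41 (adjusted p = 0.212).

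Over the 60 libraries, the genes outside the family whose levels were most like its sum were Lyz1, with a Pearson correlation of log2(CPM + 1) of 0.993, Olfm4 with 0.985, Mmp7 with 0.978, Cfi with 0.975 and Itln1 with 0.974. Gm17783, Fam234b, Myrf, Habp2 and Pitx1 completed the first 10, between 0.959 and 0.967. The libraries fall into separate sets by organ and GFP fraction, so these values are a description of 60 points that share those sets.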

How the data were processed

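Raw counts per gene and library were deposited by the authors in one table for all 60 libraries, with gene lengths and a batch number. STAR, Subread featureCounts and edgeR are named in the submitters' processing notes with the mm10 build. The annotation release, strand setting and handling of reads with several matches are not given in the sources used here. Of the counts between 1 and 29, 75.7% were even, so both mates of a pair may have been counted.

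From these counts, edgeR 4.0.16 (R 4.3.3, limma 3.58.1) fitted all 15 groups together after filterByExpr, which kept 23360 genes holding 99.97% to 99.99% of each library's counts, with TMM scaling and 45 residual degrees of freedom. The two-sided quasi-likelihood tests were adjusted by Benjamini-Hochberg over all tested genes and called below 0.05. The procedure was tested on simulated data drawn gene by gene. These held no reads shared between copies and no batches, so they do not cover those limits. Levels are CPM on TMM-scaled library sizes, and RPKM divides them by the deposited gene length. Likeness to the family was the Pearson correlation of log2(CPM + 1). DESeq2 1.42.0, DESeq2 size factors, no filter, only the compared groups, a fold of 2 as well, a replicate block and libraries left out in turn were tried. Those last fits kept the dispersion trend of all libraries. Tables and sequences were handled with Python 3.11.15, pandas 2.3.3, Biopython 1.88 and matplotlib 3.10.9.

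The deposited batch number equals the library number in all 60 libraries, so the numbers mark a shared batch. Same-numbered GFP-high and GFP-negative libraries had mean correlations of their deviations of 0.232, 0.076 and 0.088 from the proximal to the distal small intestine. For GFP-high and GFP-intermediate libraries they were 0.627, 0.452 and 0.367. Floors of 3 counts cover counting error only. If both mates of a pair were counted, 3 counts stand for fewer than 3 fragments, and differences at the floor may be overstated. Positions came from GENCODE for GRCm38, matched by gene ID for all 45 members, and start regions from RefSeq. Members described in full were the 12 with the highest CPM in small intestinal GFP-high cells and the 7 pseudogenes with 100 counts or more in a library, and others are named where a small count rests on them. The members and gene lists were chosen with earlier results of these data known.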

Additional observations from a re-analysis of the deposited data

Results flagged for a closer look

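Single libraries stood far from the other 3 of their group for 7 of the 117 groups of 4 tested, where chance flags about 1 in 20 groups. In GFP-high cells, Defa20 held 58.04 CPM in proximal library 4, with the others between 26.57 and 31.1 CPM, and Defa2 held 70.09 CPM in the same library, with the others between 44.18 and 47.86 CPM. Defa32 held 120.9 CPM in middle GFP-high library 1, with the others between 30.82 and 45.36 CPM. In distal GFP-high library 3, Defa20 was low at 336.7 CPM against 768.2 to 788.9 CPM in the others, and Defa32 at 268.9 CPM against 568.3 to 620.5 CPM. Defa22 held 157.8 CPM in proximal GFP-intermediate library 3, with the others between 89.32 and 91.89 CPM. Defa39 held 137.3 CPM in proximal GFP-negative library 1, with the others between 53.18 and 61.85 CPM.

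The contrast of GFP-high with GFP-negative cells differed between the distal and proximal small intestine in the interaction test for 5 members. The difference of log2 differences was 4.55 for Defa28, 2.58 for Defa36, 2.38 for Defa22, 2.31 for Defa29 and 1.81 for Defa34.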

How the results depend on the processing

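Counts of members higher in GFP-high or GFP-intermediate than in GFP-negative cells of the small intestine, of members higher in distal than in proximal GFP-high cells, and of members lower in the colon than in the small intestine stayed within 1.5 times of the reported count under every alternative run. Leaving out single libraries gave 10 to 12 members higher and 0 to 1 lower in distal than in proximal GFP-high cells. It gave 5 to 10 higher in middle than in proximal cells, 1 to 2 higher in distal than in middle cells, 1 to 5 in the interaction, and 5 to 11 lower in distal than in proximal GFP-negative cells. It gave 0 to 2 lower in GFP-high cells of the proximal colon, and 0 to 1 higher and 1 to 2 lower in GFP-high than in GFP-intermediate cells of the small intestine. With only the compared groups in the fit, the counts were 15 for middle against proximal, 4 for distal against middle, 3 for the interaction, 2 lower for GFP-negative distal against proximal and 0 lower in the proximal colon. That fit also called 1 higher in GFP-high than in GFP-intermediate cells over the small intestine, 1 higher and 1 lower in its distal part and 2 lower in its middle part, where no member was called in the fit over all groups. It called 2 lower in distal than in middle and 5 lower in distal than in proximal GFP-high cells, against 0 in the fit over all groups. Without the libraries numbered 1 they were 4 for middle against proximal, 2 for the interaction and 5 lower for GFP-negative distal against proximal. With no filter the interaction had 2. DESeq2 called 2 higher and 4 lower in the distal colon, 3 lower in the proximal colon, 1 lower in distal than in proximal GFP-high cells and 1 lower in GFP-high than in GFP-intermediate cells of the distal part. With the replicate block the counts were 10 for middle against proximal, 13 for distal against proximal GFP-high cells and 4 for the interaction, and no count moved by over 1.5 times. Besides the Defa34 interaction, the block changed the call of Defa29 between middle and proximal cells (adjusted p = 0.0457 with it and 0.0686 without it in edgeR) and that of Defa-ps16 between distal and proximal GFP-high cells (0.0494 with it and 0.0701 without it). In distal against proximal GFP-negative cells, uncalled log2 differences changed sign for Defa24 (-0.65 to 0.03 over the fits without one library), Defa5 (-0.30 to 0.30) and Defa17 (0.21 without the libraries numbered 1 and up to 0.22 without one library). The cause of these changes was not tested. DESeq2 size factors moved the median log2 difference of all genes by -0.11 and -0.125 for GFP-high against GFP-negative cells of the proximal and distal small intestine and by -0.12 for GFP-intermediate against GFP-negative cells. Counting error limits single members in the colon, where libraries of 69128968 to 113917959 counts held 0 to 162 counts of the family.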
